A study of Mus musculus with 4 samples.

Results

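The Slc13 genes encode a small family of sodium-coupled transporters, and their transcripts were followed in sorted cells of the mouse retina. The members were the genes listed as Slc13a1 to Slc13a5, which made 5 of the 21828 genes in the tables. The family was selected on measured values, with results of these data known: the level of Slc13a5 in the Cd73-negative libraries, where it had the largest rise of any gene between genotypes. That rise is therefore given as a description, and nothing is supported by it.

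To compare rods and the other cells of the retina in the presence and absence of Ezh2, poly(A) RNA was sequenced from retina of slc:ICR mice at postnatal day 12. Dissociated cells were sorted on Cd73, a surface enzyme that rods and their precursors carry, into a Cd73-positive fraction (Cd73P) and a Cd73-negative fraction (Cd73N). Each fraction was taken from wild type (WT) and from Ezh2-cKO retina, which gave 4 groups with 1 library each. In Ezh2-cKO mice, floxed Ezh2 was removed by Cre recombinase driven from Dkk3 in retinal progenitor cells, while the controls were normal littermates. The number of retinas behind each library is not given in the sources used here. Expression was given as FPKM, the fragments of a gene per kilobase of its exons, scaled to the mapped fragments of the library, with a lower and an upper bound for each value. The depth of the libraries is unknown, since the tables held no read counts, and the bounds give the counting precision of each value. Because each group held 1 library, no difference has a replicate check, no p-value was computed, and the standard errors (SE) given hold counting error alone.

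Slc13 proteins use the sodium gradient across the plasma membrane to carry anions into the cell. Slc13a1 and Slc13a4 carry sulfate, the substrate of sulfate activation and of sulfotransferases, and Slc13a2 and Slc13a3 carry dicarboxylates such as succinate, Slc13a3 also N-acetylaspartate. Slc13a5 carries citrate into the cytosol, where it feeds the making of acetyl-CoA and lipids. Slc13a5 is known above all from liver and brain, and its loss in people causes an epilepsy that begins early in life. Ezh2 encodes the methyltransferase of Polycomb repressive complex PRC2, which places a repressive methyl mark on histone H3.

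The label of the sort was met by Nt5e, which encodes Cd73 and stood at 0.844 and 0.609 FPKM in Cd73N against 125 and 123 FPKM in Cd73P, WT before Ezh2-cKO. The targeted gene Ezh2 was at 14.1 FPKM in Cd73N WT and 15.9 FPKM in the Cd73N library labelled Ezh2-cKO, and at 5.38 and 3.45 FPKM in Cd73P. Whole-gene FPKM does not show whether the floxed exons were lost, but in Cd73N Ezh2 was not lower in the library labelled Ezh2-cKO (log2 ratio 0.17, SE 0.056), and every genotype direction below is that between the labels. The libraries also differed in sex-linked transcripts. Xist stood at 52.2, 240, 47.0 and 95.6 FPKM in Cd73N WT, Cd73N Ezh2-cKO, Cd73P WT and Cd73P Ezh2-cKO, and 4 Y-linked genes summed to 26.8, 0.716, 27.9 and 0.496 FPKM, so genotype and sex of the animals cannot be told apart. This order of the 4 libraries is kept wherever 4 values are listed.

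On mouse build mm9 all members lie on the minus strand. Slc13a5 spans chr11:72055496-72080106 as deposited, with 12 exons and 3267 exon bases in its longest coding GENCODE transcript. Slc13a2 lies on the same chromosome at chr11:78210778-78235687. The sulfate carriers Slc13a1 and Slc13a4 share another, at chr6:24038283-24118092 and chr6:35217953-35258126, and Slc13a3 lies at chr2:165230795-165298697. Of the exon bases of Slc13a5, 139 (4.25%) are shared with the antisense transcript 1700051A21Rik, and 632 of the 2412 exon bases of Slc13a2 (26.2%) are shared with the antisense transcript Gm11194. The strand used in counting is not given in the sources used here, so reads from such overlaps cannot be told apart.

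Promoter sequence is shown for 3 members with its CpG sites, the places where a C is followed by a G, because mammalian Polycomb complexes are commonly found at CpG-rich promoters. RefSeq start sites were placed on mm9 by an exact match of the promoter sequence. Each line gives the 250 bases before the start, 5′ to 3′ on the minus strand, with every CpG in capitals. The lines are the Slc13a5 start that equals the deposited gene end (chr11:72080107-72080356, inside the longer GENCODE gene model), Slc13a4 (chr6:35258127-35258376) and Slc13a2 (chr11:78235737-78235986).
Slc13a5: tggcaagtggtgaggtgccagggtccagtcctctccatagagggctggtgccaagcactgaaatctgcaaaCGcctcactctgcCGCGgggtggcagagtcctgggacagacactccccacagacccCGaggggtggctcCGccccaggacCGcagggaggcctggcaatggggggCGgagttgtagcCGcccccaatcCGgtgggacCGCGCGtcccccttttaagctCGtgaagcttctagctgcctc
Slc13a4: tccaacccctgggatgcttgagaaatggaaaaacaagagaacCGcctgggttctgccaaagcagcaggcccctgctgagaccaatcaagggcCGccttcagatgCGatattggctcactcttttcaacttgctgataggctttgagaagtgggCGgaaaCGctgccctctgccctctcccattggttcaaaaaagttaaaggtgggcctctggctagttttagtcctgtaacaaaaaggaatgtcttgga
Slc13a2: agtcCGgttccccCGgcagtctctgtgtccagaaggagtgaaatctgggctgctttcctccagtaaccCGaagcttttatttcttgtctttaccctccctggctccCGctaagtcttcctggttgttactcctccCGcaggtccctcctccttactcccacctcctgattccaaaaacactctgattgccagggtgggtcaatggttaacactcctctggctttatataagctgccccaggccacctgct
The Slc13a5 line holds 13 CpG sites, and the Slc13a4 and Slc13a2 lines hold 5 each. The same stretch of Slc13a3, a member near 0 FPKM whose sequence is not printed, holds 14.

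Over the 300 bases of each RefSeq window, which add 50 bases after the start, the Slc13a5 promoter held 17 CpG sites, an observed over expected ratio of 0.560, with 61.7% of all 32851 windows below it. A second RefSeq start of Slc13a5, farther upstream, held 25 CpG sites and a ratio of 0.934, above 89.8% of windows. The Slc13a3 window held 22 CpG sites with a ratio of 0.615. Slc13a2 and Slc13a4 held 8 and 6 CpG sites with ratios of 0.381 and 0.338, near the median ratio of all windows, 0.384. The GC box letters GGGCGG, searched on both strands, were found in both Slc13a5 windows, in Slc13a3 and in Slc13a4, and in 35.7% of all windows. The letters CCAAT were found in Slc13a4 and in the inner Slc13a5 window and in 37.4% of all windows. TATAAA was found in Slc13a2 alone among the 5 windows of these 4 genes and in 13.6% of all windows. The E-box letters CACGTG were found in Slc13a3 and in 7.15% of all windows. TGACGTCA, found in 1.79% of all windows, was in none of the 5. RefSeq promoter sequence for Slc13a1 was not used here.

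Slc13a5, the citrate carrier, was the member with the highest FPKM in every library. Its level was 2.06 FPKM in Cd73N WT (bounds 1.74 to 2.36) and 40.2 FPKM in Cd73N Ezh2-cKO (bounds 37.0 to 39.7, so the value lies above its own upper bound). In Cd73P it was 0.107 FPKM in WT (bounds 0.0533 to 0.153) and 0.879 FPKM in Ezh2-cKO (bounds 0.708 to 1.04). The Cd73N Ezh2-cKO library was the highest and Cd73P WT the lowest, 377.7-fold apart. In the order from lowest to highest, Cd73P WT, Cd73P Ezh2-cKO, Cd73N WT and Cd73N Ezh2-cKO, the bounds of no neighbouring pair overlapped. In these bulk samples, fewer cells of a type and less RNA per cell cannot be told apart. Ranked within each library, Slc13a5 stood above 50.1% of genes in Cd73N WT and above 91.5% in Cd73N Ezh2-cKO. In Cd73P it stood above 37.4% of genes in WT and above 51.6% in Ezh2-cKO.

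The other members were at or near the floor of the measurement in all 4 libraries, and none reached 0.1 of an FPKM. Slc13a3, the carrier of dicarboxylates and N-acetylaspartate, was at 0.0643, 0.0777, 0.0433 and 0.0697 FPKM. Slc13a4, a sulfate carrier, was at 0.0431, 0.0755, 0.00737 and 0.0392 FPKM. For both genes the bounds of the 2 genotypes overlapped within each fraction, and those of the 2 fractions within each genotype. Across both, the Slc13a4 bounds of Cd73P WT (0 to 0.0318) lay below those of Cd73N Ezh2-cKO (0.0369 to 0.111), while all bounds of Slc13a3 overlapped. Slc13a2, the other dicarboxylate carrier, was at 0.0109 FPKM in Cd73N WT with bounds of 0 to 0.0543 and was listed at 0 in the other 3 libraries. Slc13a1, the other sulfate carrier, was listed at 0 in all 4. Every member had the status OK in every library, so no level was lost to a failed estimate. All members together summed to 2.17, 40.4, 0.157 and 0.988 FPKM, and Slc13a5 made up 94.6%, 99.6%, 67.8% and 89.0% of these sums.

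**Figure D1:**
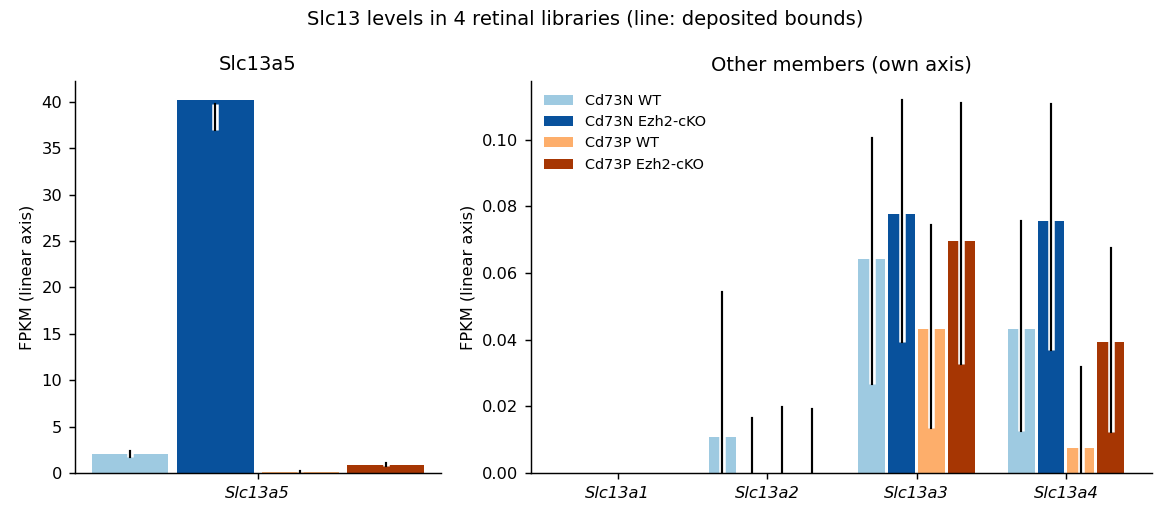
FPKM of each Slc13 gene in the 4 libraries on linear axes, Slc13a5 on the left and the other members on the right with an axis of their own; bars are the values of single libraries and lines the deposited lower and upper bounds. The Slc13a5 bar of Cd73N Ezh2-cKO reaches 40.2 FPKM, above its own upper bound of 39.7, while no bar of the other members passes 0.0777 FPKM.

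Genotypes were compared as differences of log2(FPKM + 1), a scale that understates the change of weakly expressed genes, and a gene was counted as changed past 1.5-fold on that scale. In Cd73N, 1 of the 5 members was past 1.5-fold, Slc13a5, and it was higher in Ezh2-cKO. Of all genes compared, 7.18% were higher and 1.71% were lower past the same fold. The Slc13a5 log2 ratio was 3.75 (SE 0.076), which is 19.6-fold on FPKM itself, and 0 of the genes compared had a larger one. This is the value that chose the family, and nothing is read from it. The ratios of the other members in Cd73N lay between -0.016 for Slc13a2 and 0.044 for Slc13a4, beside a median of 0 over all genes.

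The Cd73P libraries were not used to choose the family, but they are no independent check of it. They share the genotype labels and the difference in sex-linked transcripts with Cd73N. Slc13a5 in Cd73P stood at 5.18% of its Cd73N level in WT and 2.18% in Ezh2-cKO, and carry-over between the fractions was not tested. In Cd73P, 1 of the 5 members was past 1.5-fold, Slc13a5, higher in the library labelled Ezh2-cKO. Of all genes, 2.26% were higher and 2.38% were lower past that fold. The log2 ratio of Slc13a5 was 0.76 (SE 0.072), and 283 genes had a larger one. On FPKM itself the ratio was 8.25-fold, from 0.107 to 0.879 FPKM. Both values are below 1 FPKM, so the pseudocount moves this ratio strongly, and with a pseudocount of 5 it was 0.20, below the fold used. The ratios of the other members in Cd73P lay between 0 for Slc13a1 and Slc13a2 and 0.045 for Slc13a4.

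The Slc13a5 ratio between genotypes was larger in Cd73N than in Cd73P by 2.99 (SE 0.105) on the log2(FPKM + 1) scale and by 1.25 on log2 FPKM without a pseudocount. With 1 library per group this difference has no test beyond counting error, and the Cd73N ratio in it is the one that chose the gene. FPKM sums differed between libraries, and scaling them to 1 sum multiplied the FPKM ratio of Ezh2-cKO over WT by 1.11 in Cd73N and by 0.969 in Cd73P (0.15 and -0.046 as log2). After that scaling the Slc13a5 ratio was 3.90 in Cd73N and 0.74 in Cd73P.

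**Figure D2:**
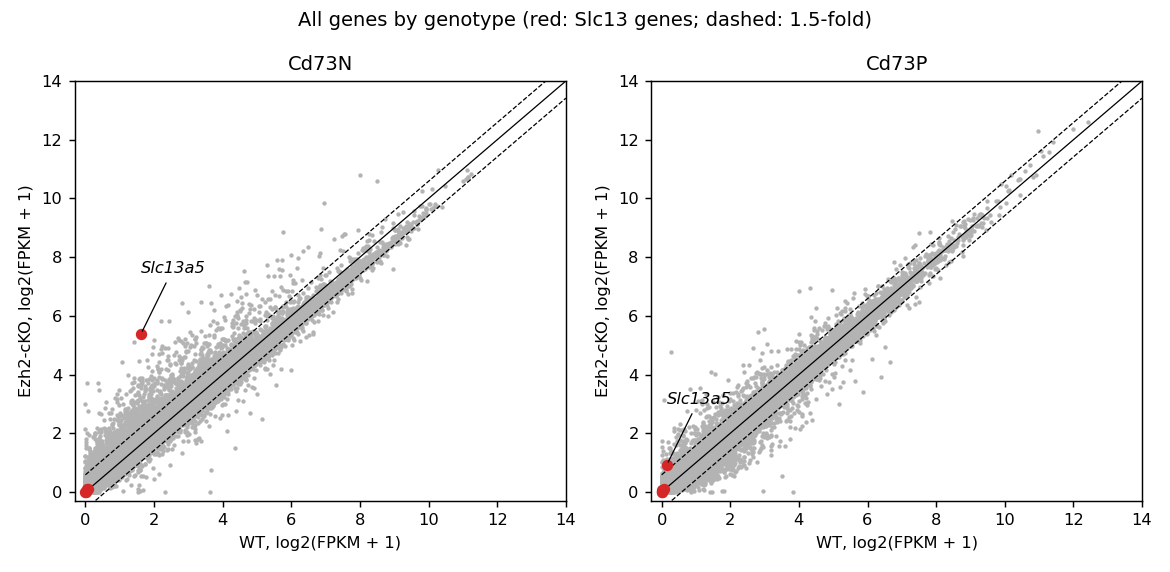
log2(FPKM + 1) of every gene in WT (x axis) and Ezh2-cKO (y axis), Cd73N on the left and Cd73P on the right; each point is a gene, red points are the Slc13 genes, the solid line marks equal values and the dashed lines 1.5-fold. Slc13a5 lies above the dashed lines in both fractions, by a log2 ratio of 3.75 in Cd73N and 0.76 in Cd73P, and the other members lie at the lower left corner.

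Fractions were compared within each genotype. In WT, 1 of the 5 members differed past 1.5-fold, Slc13a5, which was lower in Cd73P by a log2 ratio of -1.47 (SE 0.079), while 27.9% of all genes were lower and 9.07% were higher in Cd73P. With a pseudocount of 5 this Slc13a5 ratio was -0.47, and 0 of the 5 members passed 1.5-fold. In Ezh2-cKO, 1 of the 5 differed, again Slc13a5, with a log2 ratio of -4.46 (SE 0.069), while 29.1% of all genes were lower and 8.40% were higher. The Cd73P level of Slc13a5 was 5.18% of its Cd73N level in WT and 2.18% in Ezh2-cKO. Scaling to 1 sum multiplied the FPKM ratio of Cd73P over Cd73N by 1.34 in WT and by 1.16 in Ezh2-cKO (0.42 and 0.21 as log2), and the Slc13a5 log2 ratios were then -1.42 and -4.35. The other members differed by between -0.050 for Slc13a4 and 0 for Slc13a1.

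Markers of Müller glia, the radial glia of the retina, moved in the same direction as Slc13a5. The 6 markers were Rlbp1, a retinoid-binding protein, Glul, glutamine synthetase, Slc1a3, a glutamate carrier, Aqp4, a water channel, Apoe, a lipid carrier, and Dkk3, whose promoter also drives the Cre. Their FPKM summed to 921, 5047, 83.4 and 196, and none was listed at 0. In Ezh2-cKO, 6 of 6 were higher past 1.5-fold in Cd73N and 6 of 6 in Cd73P, beside 7.18% and 2.26% of all genes. The FPKM ratio of the markers in Cd73N ran from 4.29 to 10.1 with a median of 5.60, against 19.6 for Slc13a5. In Cd73P it ran from 1.93 to 6.76 with a median of 3.16, against 8.25 for Slc13a5. Slc13a5 per 100 FPKM of the summed markers was 0.223, 0.797, 0.128 and 0.449. Without Dkk3 these values were 0.258, 0.974, 0.136 and 0.527. The Cd73P level of the markers was 3.24% to 12.8% of the Cd73N level in WT and 2.17% to 5.15% in Ezh2-cKO, ranges that held the Slc13a5 values of 5.18% and 2.18%. The part of Müller glia content in the Slc13a5 levels was not tested.

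Markers of other cell types also differed between the labels, and their part in the Slc13a5 levels was not tested either. The counts are of markers past 1.5-fold. The shares of all genes past that fold were 7.18% higher and 1.71% lower in Cd73N, and 2.26% and 2.38% in Cd73P. In Cd73N, 2 of 4 astrocyte markers, 3 of 6 microglia markers, 2 of 6 cone markers, 2 of 4 amacrine markers and 1 of 6 vascular markers were higher in Ezh2-cKO and none of these lists had a lower one. Of 6 retinal ganglion markers 1 was higher and 1 lower, and 5 of 6 rod markers and 4 of 6 bipolar markers were lower. In Cd73P, 6 of 6 cone markers, 4 of 6 bipolar markers, 2 of 6 retinal pigment epithelium markers, 1 of 4 amacrine markers and 1 of 5 horizontal markers were lower in Ezh2-cKO. Of 6 vascular markers 1 was higher and 2 were lower there, and of 5 rod markers compared 1 was higher. Cone markers summed to 3710, 5179, 246 and 112 FPKM and bipolar markers to 820, 452, 70.2 and 38.7 FPKM. Astrocyte markers summed to 7.05, 21.3, 2.03 and 2.86 FPKM and microglia markers to 38.9, 59.0, 8.26 and 12.3 FPKM, with none past 1.5-fold in Cd73P. Meningeal and fibroblast markers, a possible carry-over in dissected tissue, summed to 13.2, 13.4, 0.279 and 0.446 FPKM, with 0 of 5 past 1.5-fold in either fraction.

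The genes whose pattern over the 4 libraries was most like that of Slc13a5 were found by the Euclidean distance between log2(FPKM + 1) values centred on each gene's mean, over 7598 genes with at least 10 FPKM in 1 library. They were Zfp36, an RNA-binding protein that destabilises messages (distance 0.45), Cyp26a1, which breaks down retinoic acid (0.49), Efemp1, an extracellular matrix protein (0.60), Anxa1, a phospholipid-binding protein (0.68), and Mt1, a metallothionein (0.71), beside a median distance of 3.80. Zfp36 stood at 3.63, 55.6, 1.24 and 2.51 FPKM. Cyp26a1 stood at 3.04, 35.4, 0.193 and 1.49 FPKM. In all 5 genes, as in Slc13a5, Cd73N Ezh2-cKO was the highest library and Cd73P WT the lowest. The likeness rests on 4 values per gene, with the Cd73N values that chose Slc13a5 among them.

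**Figure D3:**
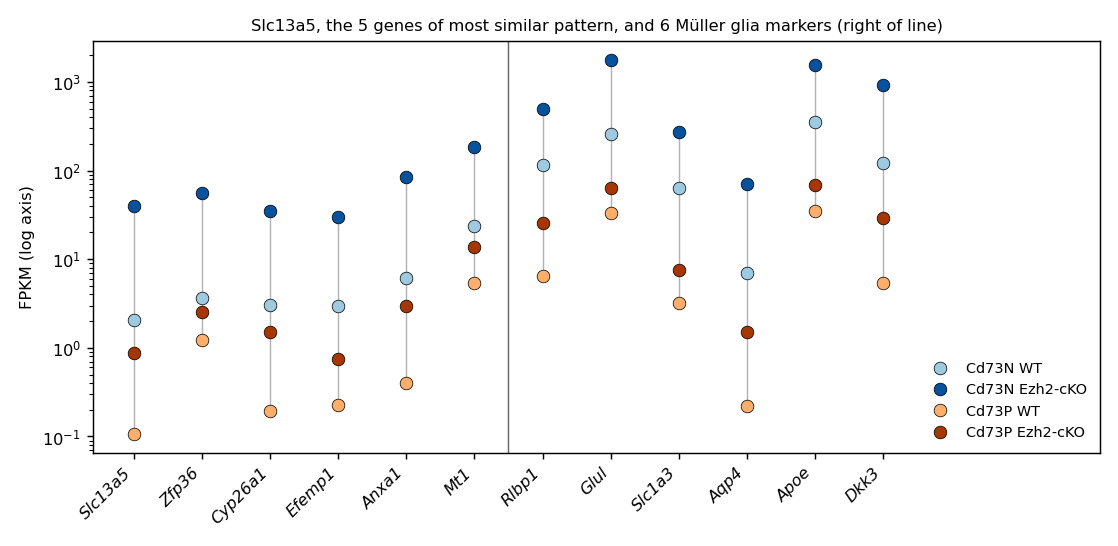
FPKM on a log axis in the 4 libraries for Slc13a5 and the 5 genes of most similar pattern (left of the line) and for the 6 Müller glia markers (right of it); each point is 1 library and the grey line spans the range of a gene. In every gene shown the order from highest to lowest is Cd73N Ezh2-cKO, Cd73N WT, Cd73P Ezh2-cKO and Cd73P WT, and Slc13a5 spans 0.107 to 40.2 FPKM.

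Past 1.5-fold in Ezh2-cKO, 7.18% of all genes were higher and 1.71% lower in Cd73N, and 2.26% and 2.38% in Cd73P. Of the 7 genes listed within 100 kb of Slc13a5, 1 was past that fold between genotypes, in Cd73N. It was Xaf1, a gene known as an inhibitor of apoptosis inhibitors, 35.0 kb away, which was at 0.387 FPKM in Cd73N WT and 1.59 FPKM in Cd73N Ezh2-cKO (log2 ratio 0.90) and had a log2 ratio of 0.0076 in Cd73P. The thioredoxin-like Txndc17 differed by a log2 ratio of -0.019 in Cd73N and of 0.061 in Cd73P. Med31, a Mediator subunit, differed by 0.29 in Cd73N and by -0.086 in Cd73P. 4933427D14Rik had 0.23 and -0.090 and 4930563E22Rik 0.23 and 0.25 in the same order. Tekt1, a protein of ciliary microtubules, was at 2.15, 2.76, 0.0181 and 0.0700 FPKM, and Fbxo39 was listed at 0 in all libraries.

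Genes of citrate, sulfate and N-acetylaspartate handling, with monocarboxylate carriers and sodium pump genes, were taken from 7 lists with 112 genes. Of these, 110 were in the tables. Past 1.5-fold, 19 of the 110 (17.3%) were higher and 3 lower in Cd73N Ezh2-cKO, and 3 were higher and 2 lower in Cd73P Ezh2-cKO. Sodium pump genes made up 5 of the 19, and the monocarboxylate carrier Slc16a1 was another of them. Of all genes, 7.18% were higher and 1.71% lower in Cd73N, and 2.26% were higher and 2.38% lower in Cd73P. Among all genes of at least 1 FPKM in 1 of the 2 libraries, 11.6% were higher in Cd73N and 2.87% lower. The counts of each list below stand beside these shares. The median log2 ratio over the lists was 0.023 in Cd73N and -0.0060 in Cd73P, beside 0 over all genes in both.

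Mitochondrial Slc25 carriers and the monocarboxylate carriers Slc16a1, Slc16a3, Slc16a7 and Slc16a8 made up a list of 10 other carriers. Of these 10, 2 were higher and 1 lower in Cd73N, and 0 were higher and 1 lower in Cd73P. Slc16a1, a monocarboxylate carrier, was at 21.8 FPKM in Cd73N WT and 71.8 FPKM in Cd73N Ezh2-cKO (log2 ratio 1.67), and at 39.4 and 56.7 FPKM in Cd73P. Slc16a3, its relative that exports lactate, was at 29.1 and 13.7 FPKM in Cd73N (log2 ratio -1.04). Slc25a21, a mitochondrial carrier of oxodicarboxylates, was the other that was higher in Cd73N, at 0.0241 and 0.941 FPKM. Slc25a13, which exchanges aspartate for glutamate, was the one that was lower in Cd73P, at 2.09 and 0.736 FPKM. Slc25a11, the oxoglutarate carrier, had a log2 ratio of -0.36 in Cd73N, and Slc25a12, a relative of Slc25a13, one of -0.21. The mitochondrial citrate carrier Slc25a1, which delivers citrate to the cytosol from inside the cell, stood at 7.40, 9.93, 0.325 and 0.599 FPKM, and its ratios of 0.38 and 0.27 did not pass 1.5-fold.

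Of 20 genes that make or use citrate, 1 was higher in Cd73N, Pcx, pyruvate carboxylase, at 5.09 and 9.09 FPKM (log2 ratio 0.73). None passed 1.5-fold in Cd73P, and the list medians were -0.12 and -0.062. Acly, which splits cytosolic citrate into acetyl-CoA and oxaloacetate, stood at 95.4, 88.1, 58.1 and 57.0 FPKM, far closer together than the levels of Slc13a5. Cs, citrate synthase, stood at 79.6, 68.6, 50.3 and 48.2 FPKM. Mdh2 and Mdh1, malate dehydrogenases and the highest of the list, had Cd73N log2 ratios of -0.48 and -0.19.

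Sulfate is also carried by members of the Slc26 family. Slc26a2, a sulfate carrier, was at 1.88, 3.08, 39.5 and 41.6 FPKM, so it was high in Cd73P, where all Slc13 genes were low. Slc26a6 and Slc26a11, anion carriers of the same family, had log2 ratios of 0.18 and 0.52 in Cd73N. Of 10 Slc26 genes, 1 was higher in Cd73N, Slc26a7, at 0.259 and 1.82 FPKM, and 1 in Cd73P, Slc26a4, at 0.0378 and 1.14 FPKM. Beside 7.18% of all genes, 3 of 7 genes of sulfate activation and return were higher in Cd73N. These were Papss2, which makes the active sulfate donor (0.0901 and 1.05 FPKM), Slc35b3, which carries that donor into the Golgi (4.57 and 7.70 FPKM), and Suox, sulfite oxidase (2.92 and 5.03 FPKM). Suox was also the 1 higher in Cd73P, with a log2 ratio of 0.75. Papss1, the more abundant enzyme, had a log2 ratio of -0.20 in Cd73N, Slc35b2 one of 0.10 and Impad1 one of 0.064. Of 44 sulfotransferases, 5 were higher (11.4%) and 1 lower (2.27%) in Cd73N, beside 7.18% and 1.71% of all genes. No sulfotransferase passed 1.5-fold in Cd73P. Chst2, which sulfates carbohydrate chains, was at 10.2 and 19.8 FPKM in Cd73N (log2 ratio 0.89) and at 0.830 and 0.639 FPKM in Cd73P. Sult4a1, a brain sulfotransferase, had a log2 ratio of 0.62 in Cd73N. Ust had the largest ratio of those higher in Cd73N, 1.46, at 2.11 and 7.54 FPKM. Ndst3 and Chst3, which complete the count, had log2 ratios of 0.78 and 0.69. Hs3st2, which modifies heparan sulfate, was the one that was lower, at 3.46 and 0.524 FPKM. The sulfotransferases with the highest levels, Hs3st3b1, Hs2st1 and Tpst1, had Cd73N log2 ratios of 0.19, -0.048 and -0.41.

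N-acetylaspartate is carried by Slc13a3, which was near 0 here. Of 8 genes listed for the metabolism of N-acetylaspartate or its dipeptide NAAG, aminoacylases among them, 2 were higher and 1 lower in Cd73N. None of the 8 passed 1.5-fold in Cd73P. Of all genes, 7.18% were higher and 1.71% lower in Cd73N. Folh1, the surface enzyme that splits NAAG, was at 1.38 FPKM in Cd73N WT and 14.8 FPKM in Cd73N Ezh2-cKO (log2 ratio 2.73, SE 0.074), and at 0.0317 and 0.445 FPKM in Cd73P. Acy3, an aminoacylase, was the other that was higher, at 1.44 and 2.83 FPKM. Rimkla, a NAAG synthetase, was at 18.0 and 10.4 FPKM (log2 ratio -0.74), and Rimklb, the other synthetase, had a log2 ratio of -0.42.

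The sodium pump keeps the gradient that Slc13 carriers use. Of its 11 subunit and regulator genes, 5 were higher in Cd73N and 0 lower, with a median log2 ratio of 0.36. In Cd73P 1 was higher and 1 lower. The shares of all genes in Cd73N were 7.18% higher and 1.71% lower. Atp1b3, a beta subunit, had a log2 ratio of 1.26 in Cd73N and Fxyd6, a regulator, one of 0.81. Fxyd1, another regulator, was at 15.5 and 60.8 FPKM in Cd73N and at 0.385 and 3.38 FPKM in Cd73P, log2 ratios of 1.90 and 1.66. Atp1b1, a beta subunit, was the one that was lower in Cd73P, at 2.56 and 1.03 FPKM. The beta subunit Atp1b2, among the highest of the list, had a Cd73N log2 ratio of -0.089.

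**Figure D4:**
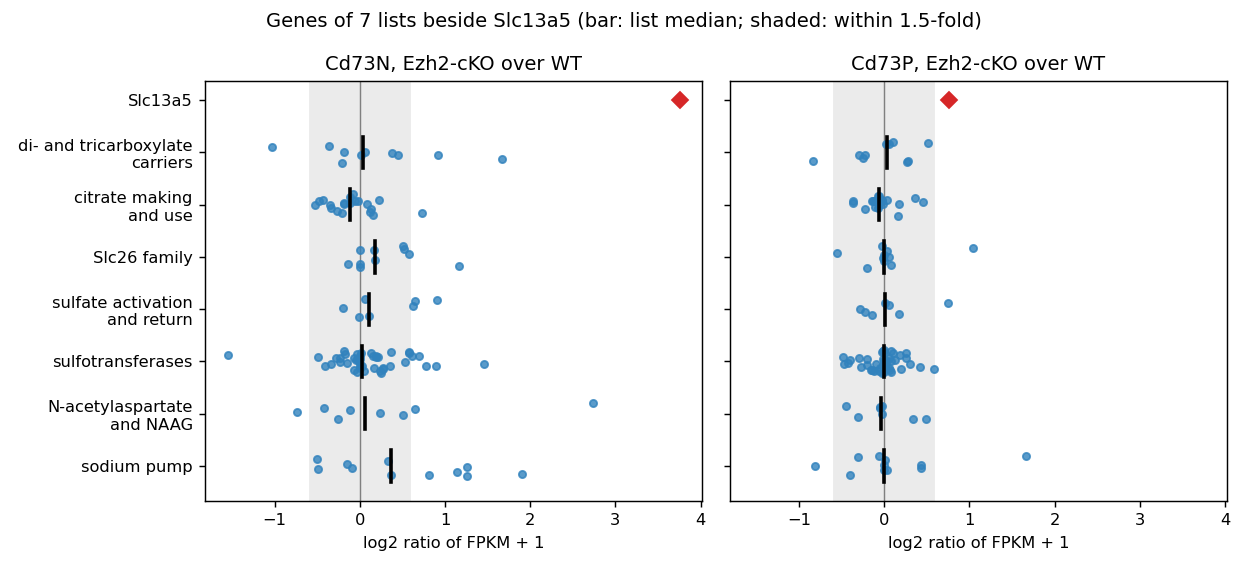
Log2 ratio of FPKM + 1, Ezh2-cKO over WT, for each gene of the 7 lists in Cd73N (left) and Cd73P (right); each blue point is a gene, black bars are list medians, the shaded band is within 1.5-fold and the red diamond is Slc13a5. The row of di- and tricarboxylate carriers also holds the monocarboxylate carriers of the Slc16 family. Slc13a5, chosen for its Cd73N ratio, lies at 3.75 there and Folh1, the highest listed gene, at 2.73. In Cd73P, Fxyd1 at 1.66 and Slc26a4 at 1.04 lie beyond the Slc13a5 ratio of 0.76.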

How the data were processed

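RNA was sequenced from Cd73N and Cd73P retinal cells of WT and Ezh2-cKO mice, 1 library per group, with groups as the titles give them. The authors aligned the reads to mouse build mm9 with TopHat2 2.0.8b and computed FPKM with Cufflinks 2.1.1 (bcl2fastq 1.8.4 made the reads), tools and versions that the submitters' processing notes name. The deposited FPKM values came with lower and upper bounds and a status, for 23021 rows per library, and were not scaled further between libraries. Deposited starts are given with 1 added.

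Values of rows with the same symbol were added up (251 symbols), and 730 symbols of small RNAs were dropped by name, leaving 21828 genes. Genes without the status OK in a library were not compared in it. Ratios are differences of log2(FPKM + 1), with a pseudocount of 1 and a threshold of 1.5-fold. The width of the bounds was taken as 4 SE. The FPKM value exceeded its upper bound in 2496 to 3389 genes per library, Slc13a5 in Cd73N Ezh2-cKO among them, so bounds and SE can miss the value there. Low-level ratios are understated by the pseudocount, and FPKM shares within a library move when other genes move.

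The members, the pathway lists and the marker lists were chosen with earlier results of these data known. Genes were named by rule: the members, Ezh2 and Nt5e, the 5 nearest patterns, genes within 100 kb of Slc13a5, and of each list the 3 highest by FPKM and those past 1.5-fold with at least 10 FPKM. Xist, the Y-linked genes, Slc25a1, Acly, Cs, the low genes that complete a count of 5 or fewer, and the solute carriers of the closing section were named after their values were seen. A few genes named by the rule are left out of the text.

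The settings tried were pseudocounts of 0.1 and 5, scaling by the median ratio or the FPKM sum, a 2-fold threshold, a minimum of 1 FPKM in 1 of the 2 libraries, rows of every status and bounds that do not overlap. Leaving out genes listed at 0 in both libraries was added after the data were seen. Python 3.11.15 with pandas 2.3.3, numpy 2.4.6 and matplotlib 3.10.9 was used, and the script was tested on simulated data. Promoters came from the RefSeq table of build GRCm38.p6, and gene models from GENCODE on the mm9 assembly.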

Additional observations from a re-analysis of the deposited data

Results flagged for a closer look

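Chst2, a carbohydrate sulfotransferase, moved in opposite directions between genotypes in the 2 fractions, and with 1 library per group the difference was not tested. Its log2 ratio was 0.89 in Cd73N and -0.16 in Cd73P, and the Cd73P ratio minus the Cd73N ratio was -1.05. Slc13a5 itself was higher in the library labelled Ezh2-cKO in both fractions.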

How the results depend on the processing

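The direction of every Slc13a5 ratio was the same under all settings tried. Its size depended on the pseudocount, and ratios below are given for the genotypes in Cd73N, the genotypes in Cd73P, the fractions in WT and the fractions in Ezh2-cKO. With a pseudocount of 0.1 they were 4.23, 2.24, -3.38 and -5.37, and with 5 they were 2.68, 0.20, -0.47 and -2.94. The count of members past 1.5-fold between genotypes in Cd73P fell from 1 to 0 with a pseudocount of 5, with a 2-fold threshold and with a minimum of 1 FPKM, which Slc13a5 does not reach there. Between fractions in WT the count was 0 with a pseudocount of 5. Slc13a1 to Slc13a4 had ratios of at most 0.41 in size under any setting, against 0.050 in the report.

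Of the listed genes, 22 passed 1.5-fold in either direction in Cd73N, and 35 with a pseudocount of 0.1, 11 with 5 and 10 at 2-fold. In Cd73P the count was 5, and 27, 1 and 2 in the same order. Over all genes, 1558 were higher and 371 lower in Cd73N, and 3253 and 767 with a pseudocount of 0.1, 620 and 177 with 5, and 643 and 71 at 2-fold. Scaling to 1 FPKM sum left 198 lower in Cd73N. In Cd73P, 490 were higher and 517 lower, and 1429 and 1712, 181 and 131, and 161 and 144 in the same order of settings. Between fractions in WT, 1968 genes were higher in Cd73P, and 3034 with median scaling, 3272 with sum scaling, 1230 with a pseudocount of 5 and 1074 at 2-fold, while 6056 were lower, and 3976 and 3832 under the last settings. In Ezh2-cKO, 1822 were higher and 6316 lower, with 1046 higher at 2-fold, and 4070 lower with a pseudocount of 5 and 4155 at 2-fold.

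No paired analysis was possible because each group held 1 library, and for the same reason leaving out a replicate was not run. The tables hold no read counts, so depth limits the 4 low members only through their bounds.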

Other observations

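Slc13a5 is 1 of 345 genes with a solute carrier (Slc) symbol. In Cd73N, 38 of the 344 compared were higher past 1.5-fold in Ezh2-cKO (11.0%) and 5 were lower (1.45%), beside 7.18% and 1.71% of all genes. Among all genes of at least 1 FPKM in 1 of the 2 libraries, these shares were 11.6% and 2.87%. Solute carriers were not counted with that minimum. In Cd73P, 12 of 345 were higher (3.48%) and 9 lower (2.61%), beside 2.26% and 2.38% of all genes. Of those higher in Cd73N, 19 had at least 10 FPKM in 1 of the libraries. The 4 with the largest ratios after Slc13a5 were picked for their values and are described without a test. Slc7a2, a carrier of cationic amino acids, was at 1.64 and 10.6 FPKM in Cd73N (log2 ratio 2.14). Slc1a3, the glial glutamate carrier, was at 62.8 and 270.4 FPKM (2.09). Slc14a1, a urea carrier, was at 4.33 and 21.3 FPKM (2.07), and Slc15a2, a peptide carrier, at 7.31 and 29.6 FPKM (1.88). In Cd73P these 4 had log2 ratios of 0.25, 1.04, 0.69 and 0.24.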
